A study of Homo sapiens with 2 samples.

Results

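Ribosomal protein pseudogenes were described here in RNA-seq counts of RKO cells, a human colon carcinoma line, after knockdown of the splicing factor SRSF2. The members were selected on their counts. They were the listed symbols made of RPL or RPS, a number, an optional letter, P and a further number, with a summed count of 20 or more over both libraries. Of 54261 listed symbols, 152 met that rule. Among them RPS19BP1, a protein-coding gene for a binding partner of RPS19, was set aside, with 402 counts and 348. The 151 members left were all pseudogenes in RefSeq, 141 of the type pseudogene and 10 of the type transcribed pseudogene, and belonged to 56 parent genes. They were a small part of the 1811 ribosomal protein pseudogenes in the table, of which 1309 had no count in either library and 351 had 1 to 19. RKO cells had been transfected, with the reagent X-tremeGENE, with si-NC, a control siRNA (the control below), or with si-SRSF2, which targets SRSF2 (the knockdown below). Neither group carried a further treatment in the labels. Each group held 1 library, so no difference had a replicate check and no test was run. Where 2 counts follow each other, the control count stands first.

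A processed pseudogene is a copy of a messenger RNA that was reverse transcribed and inserted elsewhere in the genome. It has no introns and, in most cases, no promoter of its own. Ribosomal protein genes, which encode the structural proteins of the large (RPL) and small (RPS) ribosomal subunits, are highly expressed and are known for a very large number of such copies in the human genome. Many copies are nearly identical to the parent's spliced transcript, so a read from the parent and a read from the copy can be the same sequence. All values below are for the listed symbol, and for a near-identical copy they cannot be assigned to the copy itself. Counting of reads with several equally good positions and the strand setting of the counting are not given in the sources used here.

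The following stretches of sequence show how close copy and parent are, for the families to which the results below return. All come from GRCh38, 5′ to 3′ on the coding strand, and lie inside the parent's coding sequence. Capitals mark bases of the pseudogene that differ from the parent, and positions are counted from the first base of the parent's start codon. RPL9 and its copies RPL9P8 and RPL9P7 are given for coding positions 247 to 366. RPL9 lies on the minus strand of chr4, and these bases are spread over several exons from 39456431 to 39457597. The RPL9P8 stretch lies at chr15:82372523-82372642 and the RPL9P7 stretch at chrX:23836955-23837074, both on the minus strand.

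RPL9: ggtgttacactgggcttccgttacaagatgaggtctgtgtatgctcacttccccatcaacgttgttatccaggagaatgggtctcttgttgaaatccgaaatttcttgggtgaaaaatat
RPL9P8: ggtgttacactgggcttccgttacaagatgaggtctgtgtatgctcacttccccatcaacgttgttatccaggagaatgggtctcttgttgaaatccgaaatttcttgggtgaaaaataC
RPL9P7: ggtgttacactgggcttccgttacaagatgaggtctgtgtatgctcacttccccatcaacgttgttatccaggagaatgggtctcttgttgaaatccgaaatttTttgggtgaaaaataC

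RPL9P8 differed from RPL9 at 1 of the 576 coding bases, T366C, and this was also its single mismatch over the 704 bases aligned to the RPL9 transcript. RPL9P7 carried the same T366C and, in addition, C351T. The base that separates RPL9P8 from its parent was thus shared with a second copy, and 0.297% of the 31-base words of RPL9P8 occurred nowhere else in the primary assembly.

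RPS18 is shown for coding positions 168 to 287, from chr6, plus strand, between 33275862 and 33276062, with RPS18P5 at chr3:101576661-101576780 and RPS18P12 at chr17:14705248-14705367, both on the minus strand.

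RPS18: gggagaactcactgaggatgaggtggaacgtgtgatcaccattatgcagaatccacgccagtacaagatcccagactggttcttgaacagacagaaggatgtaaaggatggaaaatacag
RPS18P5: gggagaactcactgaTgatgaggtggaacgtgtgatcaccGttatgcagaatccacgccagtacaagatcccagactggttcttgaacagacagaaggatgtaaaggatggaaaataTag
RPS18P12: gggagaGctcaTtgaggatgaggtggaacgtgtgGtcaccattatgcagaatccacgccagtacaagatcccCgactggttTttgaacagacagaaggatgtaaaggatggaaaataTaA

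RPS18P5 had 6 mismatches over the 456 coding bases of RPS18 and RPS18P12 had 16. RPL17, on the minus strand of chr18 between 49490468 and 49490827, is shown for coding positions 182 to 301, with RPL17P7 at chr1:108992463-108992582 on the plus strand and RPL17P18 at chr3:197850654-197850773 on the minus strand.

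RPL17: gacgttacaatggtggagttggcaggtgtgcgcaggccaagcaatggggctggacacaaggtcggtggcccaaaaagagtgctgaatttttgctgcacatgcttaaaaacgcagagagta
RPL17P7: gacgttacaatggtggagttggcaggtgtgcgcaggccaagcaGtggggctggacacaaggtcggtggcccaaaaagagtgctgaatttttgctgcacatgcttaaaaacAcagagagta
RPL17P18: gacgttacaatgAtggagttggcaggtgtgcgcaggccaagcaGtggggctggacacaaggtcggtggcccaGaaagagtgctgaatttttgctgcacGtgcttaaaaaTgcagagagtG

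RPL17P7 had 4 mismatches and RPL17P18 had 14 over the 552 coding bases. RPS14, on the minus strand of chr5 between 150446881 and 150447621, is shown for coding positions 113 to 232 because its copy RPS14P3, at chr1:19608226-19608345 on the plus strand, stood furthest above its parent among members with 50 or more counts.

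RPS14: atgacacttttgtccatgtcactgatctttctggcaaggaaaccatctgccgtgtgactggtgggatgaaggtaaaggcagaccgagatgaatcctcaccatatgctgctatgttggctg
RPS14P3: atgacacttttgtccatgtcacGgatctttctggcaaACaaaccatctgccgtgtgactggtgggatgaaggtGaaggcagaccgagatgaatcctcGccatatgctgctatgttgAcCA

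RPS14P3 had 20 mismatches over the 452 coding bases aligned. RPL41, at the other end of the range, has a coding sequence of 75 bases without the stop codon, from 56116788 to 56117521 on the plus strand of chr12. Its copies RPL41P1 (chr20:21755270-21755344, plus strand), RPL41P2 (chr15:28315693-28315767, plus strand), RPL41P3 (chr22:35838583-35838657, minus strand) and RPL41P5 (chr12:93083601-93083675, minus strand) matched it at every coding base, so 1 line stands for all of them.

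RPL41: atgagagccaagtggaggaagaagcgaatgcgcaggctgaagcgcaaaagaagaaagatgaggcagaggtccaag

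The control library held 19931360 counts and the knockdown library 14512802. SRSF2 itself had 1964 counts in the control and 713 in the knockdown, a log2 ratio of -0.997 (95% interval -1.13 to -0.88). Of the epithelial markers, EPCAM, KRT8, KRT18 and CDX2 had 147 to 632 counts in both libraries, while KRT19, CDH1, VIL1, CDX1, KRT20 and CDH17 had 0 to 10. Markers of blood and endothelial cells had 0 to 2 counts, and of the fibroblast markers COL1A1 had 13 counts in each library, COL1A2 had 8 and 3 and DCN had 0 in both. Ratios are knockdown over control, between CPM (counts scaled by library sizes that edgeR's TMM method adjusted), after adding 0.5 CPM. Intervals are 95% Clopper-Pearson intervals of the ratio without that addition. Differences between a pseudogene and its parent are on another scale, the log2 odds ratio of their raw counts with nothing added, and for members with few counts they are not the difference of the 2 printed log2 ratios. They cover counting error only, and neither they nor the counts carry the spread between transfections. In bulk RNA, fewer cells with a transcript and less of it per cell cannot be told apart.

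Of the 151 ribosomal protein pseudogenes, 69 had a higher level in the knockdown with an interval above 0 and 12 a lower level with an interval below 0. The interval held 0 for the other 70. By the ratio alone, 110 members were above 0 and 41 below, with a median of 0.26. That median was 0.10 over the 502 pseudogenes with at least 1 count and 0.41 over the 62 members with 50% or more unique 31-base words. Over all 13535 listed genes with 20 or more counts, 46.7% were above 0 and the median was -0.02. Among the 78 ribosomal protein genes with a count, 56 were above 0, but their median was 0.07. Over all genes, 20.3% had an interval above 0 and 25.3% had one below. Large and small subunit pseudogenes had like values. The 91 RPL members had a median of 0.26, with 66 above 0, and the 60 RPS members had a median of 0.27, with 44 above 0.

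Differences of 2-fold or more were few. In 4 members the knockdown level was at least 2-fold higher, against 1.11% of all genes. This count was 11 with an addition of 0.1 CPM and 0 with 2 CPM. At 20 to 49 summed counts the share was 4.88% of members and 5.18% of all genes, and from 50 to under 200 it was 4.35% and 2.68%. Each of the 4 rested on small counts: RPL12P17 went from 11 counts in the control to 29 in the knockdown, RPS3AP21 from 7 to 21, RPS14P3 from 19 to 39 and RPS18P2 from 39 to 66. Their log2 ratios were between 1.04 for RPS18P2 and 1.25 for RPL12P17, and each interval reached below 1. In 1 member, RPL9P8, the level was at least 2-fold lower, against 0.621% of all genes. With an addition of 0.1 CPM there were 3 such members, and among the 62 members with 50% or more unique 31-base words there were 0. By count range the medians were as follows. With 20 to 49 summed counts, 25 of 41 members were above 0 and the median was 0.17, against 0.08 for all genes in that range. With 50 to under 200 counts, 39 of 46 members were above 0 and the median was 0.48, against 0.02. With 200 or more counts, 46 of 64 were above 0 and the median was 0.20, against -0.03.

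**Figure D1:**
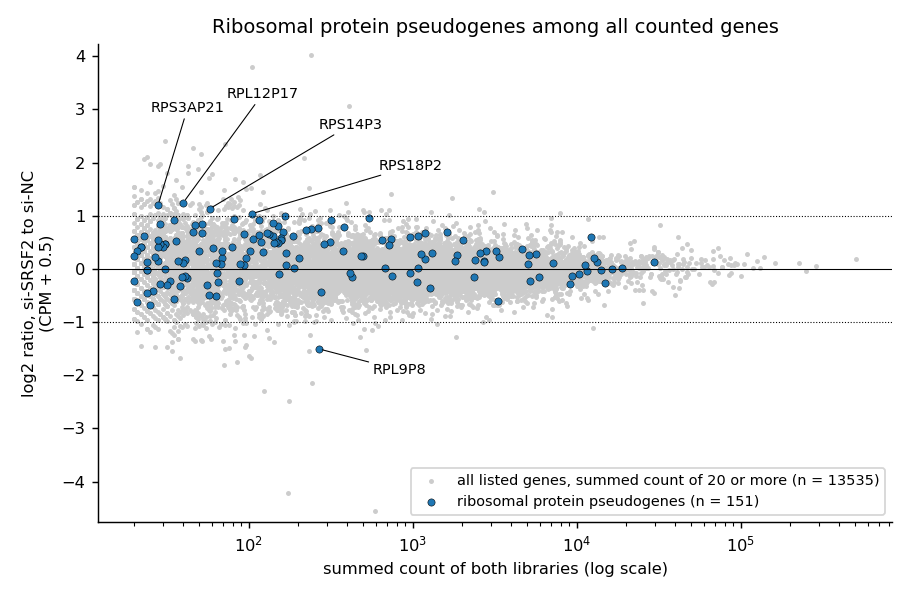
The log2 ratio, knockdown over control (vertical axis, CPM plus 0.5), against the summed count of both libraries (horizontal axis, log scale) for the 151 ribosomal protein pseudogenes (blue) and all 13535 listed genes with 20 or more counts (grey). Dotted lines mark 2-fold. The 5 named pseudogenes lie beyond them, 4 above and RPL9P8 below, and 110 of the 151 blue points lie above 0.

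RPL9P8 was the member with the lowest log2 ratio, and since it was singled out for that, its values are a description. It lies at chr15:82372211-82372914 on the minus strand, inside UBE2Q2P2, which is on the opposite strand. RPL9P8 had 217 counts in the control and 51 in the knockdown, or 10.9 and 3.51 CPM, a log2 ratio of -1.50 (95% interval -2.10 to -1.19). Its parent RPL9, which encodes a large subunit protein, was also much lower in the knockdown. RPL9 had 9501 counts in the control and 3178 in the knockdown, a log2 ratio of -1.12, and was the single ribosomal protein gene past 2-fold. Relative to RPL9, on the raw-count scale without the added 0.5 CPM, RPL9P8 stood at -0.51, with an exact interval of -0.98 to -0.06 that came close to 0. RPL9P7, an almost equally close copy on the X chromosome inside APOO on the same strand, had 180 counts and 95, a log2 ratio of -0.44 (-0.84 to -0.10). It therefore stood above the parent, by 0.66 (0.28 to 1.03), although both copies carry T366C. The third counted copy, RPL9P11, was 87.6% identical to RPL9, lies inside SLC25A33 on the same strand and had 13 counts and 16. The copies thus spanned log2 ratios from -1.50 to 0.48, and the 2 near-identical ones shared the parent's direction. UBE2Q2P2, the host of RPL9P8, had 42 counts and 22. RPL9P8 amounted to 2.28% of the RPL9 count in the control. Of the 150-base stretches of RPL9P8, the length of 1 read, 73.0% were found letter for letter in the RPL9 transcript.

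In the RPL41 family, too, most pseudogenes were lower in the knockdown. RPL41 encodes the smallest protein of the large subunit. The parent had 2660 counts in the control and 1263 in the knockdown, a log2 ratio of -0.61, the lowest of the ribosomal protein genes after RPL9. RPL41P1 had 2235 counts and 1073, a log2 ratio of -0.60 (-0.71 to -0.50), which differed from that of the parent by 0.02 (-0.13 to 0.16). RPL41P3 had 5680 counts and 3392, a log2 ratio of -0.29 (-0.35 to -0.22). RPL41P5 had 3194 and 1994, a log2 ratio of -0.22 (-0.30 to -0.14). The last copy, RPL41P2, had 10 counts in each library. The coding stretch of the 4 copies is the same, yet the interval of RPL41P1 did not overlap those of RPL41P3 and RPL41P5, which stood 0.33 (0.22 to 0.45) and 0.39 (0.27 to 0.52) above the parent.

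**Figure D2:**
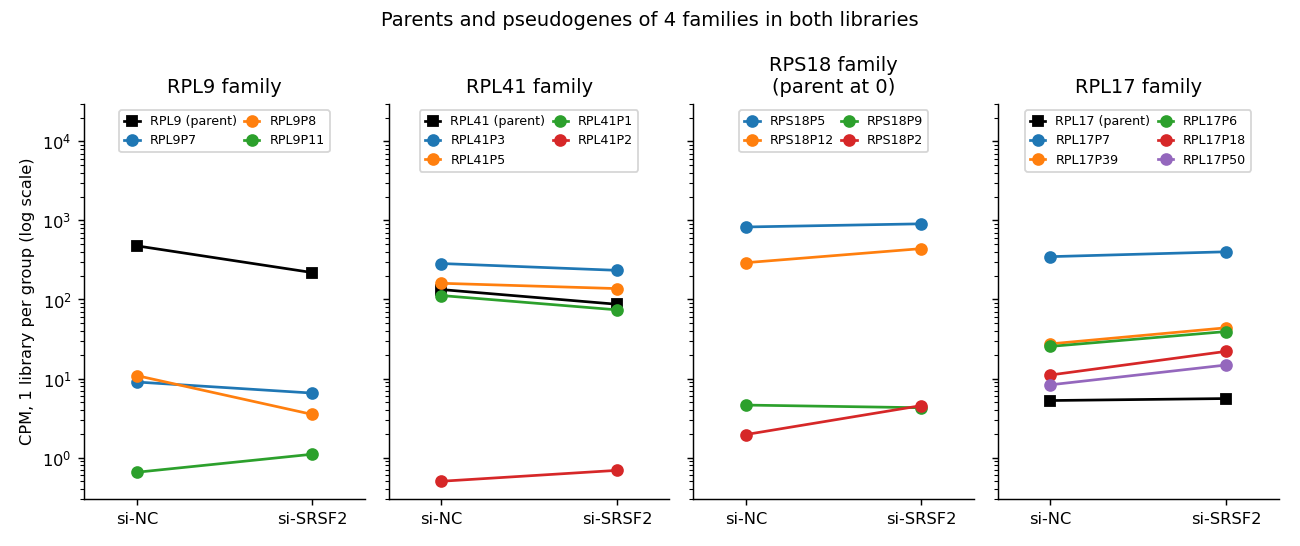
CPM (vertical axis, log scale) in the 2 libraries, si-NC left and si-SRSF2 right, for the parent gene (black squares) and its counted pseudogenes (circles) in the RPL9, RPL41, RPS18 and RPL17 families. RPL9 and RPL9P8 are more than 2-fold lower on the right and RPL9P7 less so. RPS18 has no black square because it had 0 counts, and all 5 RPL17 pseudogenes lie above their parent.

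A few pseudogenes carried most of the counts. The members together held 159038 counts in the control and 123208 in the knockdown, or 0.798% and 0.849% of each library. Within members plus parents their share was 15.5% in the control (exact interval 15.5 to 15.6) and 16.2% in the knockdown (16.2 to 16.3). Without the 11 families in which a member had more counts than its parent in the control, it was 9.02% and 9.49%. The 10 most abundant members took 55.4% and 54.8% of the member counts, and 41 members had 1000 or more summed counts. RPS18P5 led with 16464 counts in the control and 13148 in the knockdown, a log2 ratio of 0.13 (0.10 to 0.17). RPL13AP5 followed with 10847 and 7980, then RPL7P9 with 9569 and 6976, and the intervals of both held 0. RPL7AP6, with 9308 and 5649, was lower in the knockdown at -0.26 (-0.31 to -0.22), and so was RPL21P75, with 5674 and 3768, at -0.13 (-0.19 to -0.07). RPS28P7, with 6177 and 4201, was lower by less, at -0.10 (-0.16 to -0.04). RPL17P7 had 6938 counts and 5821, a log2 ratio of 0.20 (0.15 to 0.25), and RPL29P4 had 7391 and 5901, a log2 ratio of 0.13 (0.08 to 0.18). RPS18P12 was the one of these 12 with a large difference. It had 5820 counts in the control and 6385 in the smaller knockdown library, a log2 ratio of 0.59 (0.54 to 0.64). RPL39P3, with 8184 and 5908, and RPS2P5, with 6793 and 4798, had intervals that held 0, and RPL7P1, with 6419 and 4905, was at 0.07 (0.02 to 0.12). Against their own parents, RPL7P9 and RPL7P1 stood higher by 0.16 (0.10 to 0.21) and 0.22 (0.16 to 0.28), RPL29P4 by 0.37 (0.31 to 0.44), while RPS2P5 stood lower, at -0.23 (-0.29 to -0.17), and RPL7AP6 at -0.18 (-0.25 to -0.12).

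In 11 of the 56 families a pseudogene had more counts than its parent in the control. In all, 21 members exceeded their parent in both libraries, and the same 21 did so per kilobase of annotated length. The clearest case was RPS18, a small subunit protein gene that was listed at 0 in both libraries. Counting alone allows 0.151 CPM in the control and 0.207 CPM in the knockdown at a count of 0. RPS18P5 and RPS18P12 together with RPS18P9 (92 and 62 counts) and RPS18P2 held 22415 counts in the control and 19661 in the knockdown. Of the 456 coding bases of RPS18, RPS18P12 differs at 16, and 71.6% of its 31-base words occurred nowhere else in the primary assembly, against 26.6% of those of RPS18P5. RPS9, also a small subunit protein, had 13 counts in the control and 9 in the knockdown, whereas RPS9P2 had 1689 and 1558. RPS10 had 17 counts and 19, and RPS10P19 1520 and 1211. RPL17 had 105 counts and 81, against 6938 and 5821 for RPL17P7. RPL36A had 116 and 143, and RPL36AP37, whose 399 bases match the RPL36A transcript at every base, had 3018 and 2676. RPS26 had 289 and 227, and RPS26P25, likewise without a mismatch, had 3559 and 2318. In CPM per kilobase, RPL39P3 stood at 1061 in the control against 31.4 for RPL39, and RPS28P7 at 827 against 6.34 for RPS28. RPL21P75 stood at 501 against 62.1 for RPL21, none of whose exonic 31-base words was unique. These pseudogenes had a median identity of 98.7% with their parents.

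Some of these parents lie in places with more than 1 annotated copy or gene. Of the 56 parents, 12 had fewer than 1000 counts in the control. The median share of unique exonic 31-base words was 31.2% over these 12, with a range of 0 to 79.3%. It was 39.7% over the other 44, with a range of 0.871% to 86.3%. Alternate-locus scaffolds of GRCh38 are additional versions of a region carried beside the primary chromosomes. The exons of RPS18 were present on 4 such scaffolds, those of RPS9 on 9 and those of RPL9 on 1, each with at least 80% of the 31-base words. Of these, RPL9 was the one with more than 1000 counts. Other parents had exons overlapped by another gene on the same strand, over at least 40% of their bases. Among them were RPS10 under RPS10-NUDT3, RPL17 under RPL17-C18orf32 and RPL36A under RPL36A-HNRNPH2, all with fewer than 1000 counts, and RPL26 with more. Neither feature was found, at these limits, for 6 of the 12 parents with fewer than 1000 counts, RPS28, RPL39, RPL21, RPS25, RPS26 and RPL23A. Whether alternate scaffolds were part of the authors' index is not given in the sources used here, and the part of these features in the parents' low counts was not tested.

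**Figure D3:**
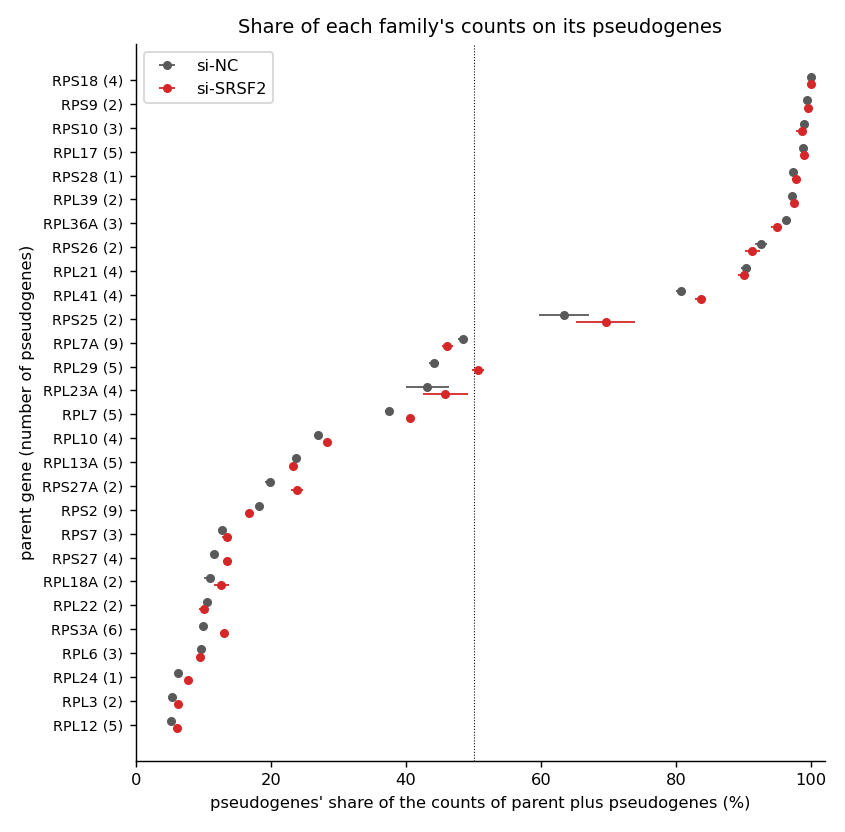
Share of a family's counts (parent plus pseudogenes) that lay on the pseudogenes (horizontal axis, percent) in the control (si-NC, grey) and the knockdown (si-SRSF2, red), with exact 95% intervals, for families with a share of 5% or more in the control (1 family is not shown). The number of pseudogenes stands beside the parent. The share ran from 100% for RPS18, through 80.7% and 83.7% for RPL41, down to 5.23% and 6.09% for RPL12.

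The pseudogenes were next set against their own parents. For 147 members the parent had counts in both libraries, and the ratio of member to parent could be compared between libraries without any scaling. The log2 difference was above 0 for 110 members and below 0 for 37, with a median of 0.33. The exact interval lay above 0 for 58, below 0 for 11, and held 0 for 78. By count, 24 of 41 members were above their parent with 20 to 49 summed counts, 38 of 44 with 50 to under 200 and 48 of 62 with 200 or more, with medians of 0.33, 0.50 and 0.22. Across the 62 members with 200 or more counts, which share both libraries, Pearson's r between the log2 ratios of member and parent was 0.60 and Spearman's rho 0.46. Without the RPL9 and RPL41 families, r was 0.26 and rho 0.31 over 57 members. For the 85 members with fewer counts r was -0.11.

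**Figure D4:**
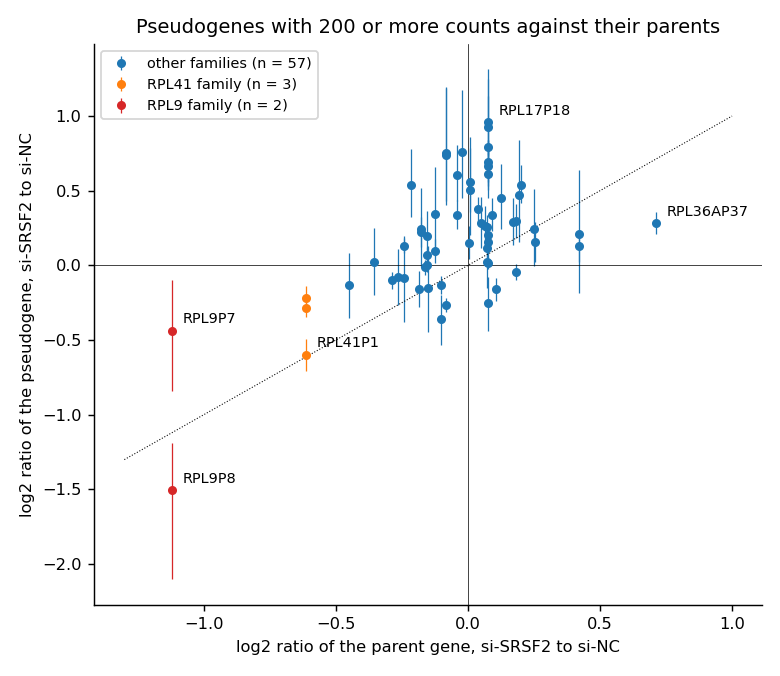
The log2 ratio, knockdown over control, of each pseudogene with 200 or more counts (vertical axis, with 95% counting intervals) against that of its parent (horizontal axis), with the RPL9 family in red and the RPL41 family in orange; the dotted line marks equal ratios. Of these 62 pseudogenes 48 lie above the line, and RPL9P8 lies below it at the lower left.

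The 8 members that stood furthest above their parents, among those with 50 or more counts, were copies with middle counts. RPS14P3, with 19 counts and 39, stood 1.42 above RPS14 (0.59 to 2.30) on the raw-count scale, which adds nothing to these small counts. RPS14 had 14902 counts and 11422. RPL7P19, with 65 and 101, stood 1.25 above RPL7 (0.78 to 1.72). RPL12P38 (20 and 32) and RPL19P9 (31 and 50) followed at 1.13 and 1.05. The others were RPL13AP7 (46 and 70), RPS7P10 (58 and 72), RPL17P18 (221 and 320) and RPL13AP25 (131 and 188), at 0.99, 0.96, 0.91 and 0.90. All 8 had intervals above 0, and their identity with the parent was between 94.5% for RPL7P19 and 97.7% for RPL13AP25. One of them, RPS14P3, lies in a host gene on the same strand, NBL1, which had 6 counts and 5. RPL17P18 lies opposite LRCH3, which had 1488 counts and 1156.

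The 8 members furthest below their parents were a mixed group, and 3 of them had intervals below 0. RPS29P16, with 55 counts and 33, stood at -0.77 (-1.45 to -0.12) against RPS29, which had 2634 and 2701. RPL9P8 stood at -0.51 and RPL36AP37 at -0.48 (-0.85 to -0.10). RPL36AP37 itself was higher in the knockdown, at 0.28, and its parent RPL36A, the highest of the ribosomal protein genes at 0.71, rested on 116 and 143 counts. The intervals of RPS15AP10 (43 and 20), RPL7AP16 (39 and 18), RPS10P19, RPS4XP11 (36 and 20) and RPS10P3 (110 and 94) held 0. RPS15AP10 and RPL7AP16 both lie within GPBP1L1 on its strand, which had 2046 counts and 1462, a log2 ratio of -0.03. RPS29P16 lies within PSMC2, a proteasome subunit gene with 1981 and 1235 counts and a log2 ratio of -0.22. RPS29P16 itself was at -0.23 (-0.95 to 0.37).

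The 8 families with 5 or more counted pseudogenes held 49 of the members. Those of RPL17, RPS3A and RPL12 were above 0 throughout. The 5 RPL17 pseudogenes ran from 0.20 for RPL17P7 to 0.96 for RPL17P18, while RPL17 was at 0.08. The 6 RPS3A pseudogenes ran from 0.09 to 1.19, against -0.18 for RPS3A, and the 5 RPL12 pseudogenes from 0.15 to 1.25, against 0.003 for RPL12. In the other 5 families both signs occurred. Of the 9 RPL7A pseudogenes 6 were above 0, of the 9 RPS2 pseudogenes 4, of the 5 RPL7 pseudogenes 4, of the 5 RPL13A pseudogenes 4 and of the 5 RPL29 pseudogenes 3. The widest ranges were -0.67 to 0.87 for RPS2 and -0.50 to 0.92 for RPL7A. RPL21 was the opposite case, with 4 of 4 pseudogenes below 0, from -0.36 to -0.07, and the parent at -0.10. Of all 40 families with 2 or more members, 17 had every member above 0 and 1, RPL21, had every member below 0.

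Within most families the most counted copy had one of the lower ratios. In the 28 families with 2 or more members of at least 50 counts, the most counted member lay below the median of the others in 21, and the median gap was 0.19 on the log2 scale. In the RPL7A family, RPL7AP6 was at -0.26, whereas RPL7AP30 (105 counts and 134) and RPL7AP11 (99 and 125) were at 0.75 and 0.74. In the RPL13A family, RPL13AP5 was at 0.01, and RPL13AP25 and RPL13AP7 were at 0.93 and 0.92. RPL7P9 and RPL7P1 were within 0.1 of 0, and RPL7P19 was at 0.99.

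The median ratio was highest at intermediate identity with the parent. Over the aligned bases identity ran from 71.5% to 100%, with a median of 96.5%. It was 98.7% at the median of the 64 members with 200 or more counts and 94.1% at that of the 87 members with fewer. The 53 members with an identity of 98% or more had a median summed count of 1868 and a median log2 ratio of 0.13. In the 42 members from 95% to below 98%, the median count was 158 and the median ratio 0.49, with 37 above 0. The 34 members from 90% to below 95% had a median count of 43.5 and a median ratio of 0.37, and the 22 below 90% a count of 60 and a ratio of 0.12. Relative to the parents the medians in the same order were 0.20, 0.57, 0.49 and 0.03. A host gene on the same strand was assigned to 8 of the 53 members at 98% or more and 6 of the 42 in the next band. It was assigned to 10 of the 34 in the band from 90% and 16 of the 22 below it. The 16 include RPL23AP82 on chr22, doubtfully assigned to RPL23AP7, a member placed on chr2. The parts of identity, counts and host genes in the ratios were not tested. The 3 members that matched the parent transcript at every aligned base were RPS26P25 at a log2 ratio of -0.16, RPL36AP37 at 0.28 and RPL21P16 at -0.36.

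**Figure D5:**
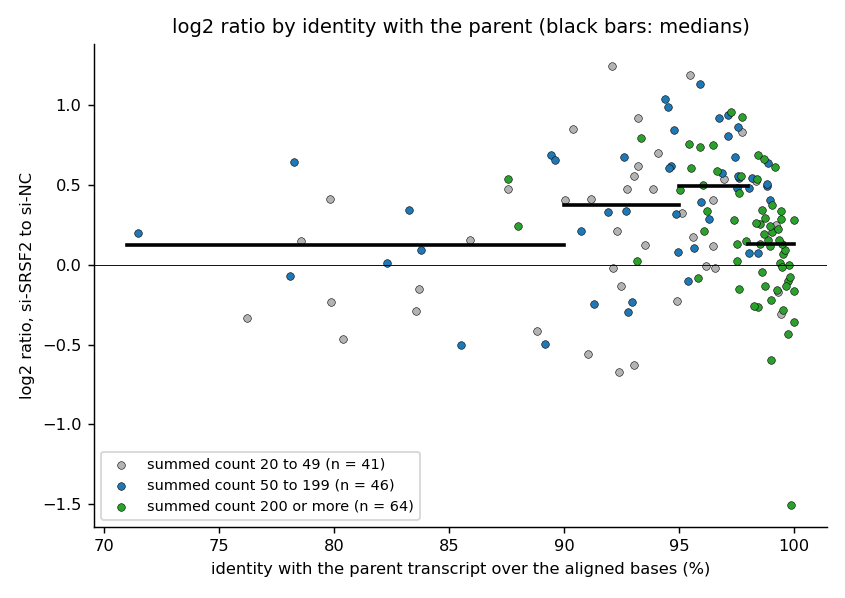
The log2 ratio, knockdown over control (vertical axis), against identity with the parent transcript over the aligned bases (horizontal axis, percent) for the 151 pseudogenes, coloured by summed count; black bars are the medians below 90%, from 90%, from 95% and from 98%. The bars stand at 0.12, 0.37, 0.49 and 0.13, and the points from 98% upward spread to both sides of 0.

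Members inside another gene on the same strand had a lower median than the rest. A host was a listed and named protein-coding or lncRNA gene of GENCODE whose span held the whole member. The 40 members assigned such a host on the same strand had a median log2 ratio of 0.10, with 22 above 0. They include RPL23AP82 on chr22, assigned to RPL23AP7, itself a member that RefSeq places on chr2. That assignment is doubtful, and the values were not computed without it. The 75 members without a host so defined had a median of 0.34, with 61 above 0, and may still overlap other genes. The 36 members with a host on the opposite strand only had a median of 0.29, with 27 above 0. Pearson's r between the log2 ratios of member and host was 0.21 over 31 members. These were the members with a same-strand host and fewer than 200 summed counts, RPL23AP82 included. Same-strand hosts of some much counted members had few or no counts. OOEP, the host of RPL39P3, and SLC35F1, the host of RPL29P4, had 0 counts in both libraries, and PLEKHA7, the host of RPL36AP37, had 2 and 3. AMBRA1, the host of RPS10P19, had 912 and 641.

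Other pseudogenes in the table had a lower median, though hardly so at the lowest counts. Of the 408 other genes of RefSeq type pseudogene with 20 or more counts, 62.0% were above 0, with a median of 0.14, against 72.8% and 0.26 for the ribosomal protein pseudogenes. With 20 to 49 counts, 63.0% of 173 other pseudogenes and 61.0% of the 41 ribosomal ones were above 0, with medians of 0.13 and 0.17. In the range of 50 to under 200 counts the medians were 0.21 over 141 other pseudogenes and 0.48 over the 46 ribosomal ones. With 200 or more counts they were 0.08 over 94 and 0.20 over 64. The 224 other transcribed pseudogenes had a median of -0.03, the 616 lncRNA genes one of 0.11 and the 10691 protein-coding genes one of -0.04.

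At the threshold of 20 counts, values were set by few reads. Just inside lay RPL32P32 with 13 counts and 7, RPL12P6 with 8 and 12, and RPL41P2. RPL10AP9 had 16 and 5 and RPS2P40 had 10 and 11. Just outside lay RPL23AP87 with 4 and 15, RPS10P7 with 7 and 12, RPS18P14 with 15 and 4, RPL32P2 with 14 and 5 and RPL21P97 with 11 and 8. A member this close to the threshold could pass through 1 library alone.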

How the data were processed

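RNA from 1 si-NC and 1 si-SRSF2 culture of RKO cells was sequenced as stranded poly(A) libraries with paired reads of 150 bases. The authors aligned the reads to GRCh38 with HISAT2 (2.0.4 in the submitters' processing notes) and counted them per gene with HTSeq. The authors deposited these counts per gene symbol as they were, not normalized. The strand setting is not given in the sources used here. From these counts CPM were computed with TMM library sizes (edgeR 4.0.16, R 4.3.3). Ratios were taken on the log2(CPM + 0.5) scale, with Clopper-Pearson and conditional exact intervals at 95% (SciPy 1.17.1). Parents were the symbol without the final P and number. Pseudogene positions came from RefSeq (GRCh38.p14), parent exons from GENCODE release 44. Identity came from blastn 2.17.0 and uniqueness from 31-base words (not computed for 4 members with spans over 2500 bases).

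The members, lists and bands were chosen with earlier results of these data known. Named were RPL9P8, the 12 largest summed counts, and, at 50 or more counts, the 8 largest differences in each direction against the parent. Families of 5 or more, host genes, members at the threshold and members past 2-fold were added. Other members were named after their values were seen. Counts of 13535 genes were also simulated with counting error only (Poisson). Of 200 genes changed by 2 on the log2 scale, 96.0% were found past 2-fold in the right direction. Past 2-fold were also 6 unchanged genes, and 95.3% of intervals held the given ratio. The simulation held no spread between transfections and no reads shared by copy and parent, so it checks the computation only. Alternatives were total counts, upper-quartile and DESeq2 1.42.0 size factors, pseudocounts of 0.1 and 2 CPM, other count minimums and subsets of members. The result for 1 parent gene is not reported here.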

Additional observations from a re-analysis of the deposited data

How the results depend on the processing

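Of 54 alternative values, 37 stayed within the set tolerance, 17 moved and none reversed. The number of members at least 2-fold higher, 4 with the settings used, was 11 with a pseudocount of 0.1 CPM, 0 with 2 CPM, 7 with no count minimum and 2 with a summed count of 50 or more. The number at least 2-fold lower, 1, was 3 with 0.1 CPM, 0 without RPL9P8 and 0 over the 62 members with 50% or more unique 31-base words. The median log2 ratio of members was 0.10 over the 502 with at least 1 count and 0.41 over those 62 members. All other medians stayed between 0.19 and 0.34, and RPL9P8 between -1.60 and -1.22. The pseudogenes' share of counts in si-NC and si-SRSF2 was 12.5% and 12.9% with no minimum, which adds few pseudogene counts but also brings more parents into the denominator, 14.2% and 14.8% without RPS18P5, and 0.798% and 0.849% of all counts. It was 9.02% and 9.49% without the 11 families in which a member exceeded its parent, an alternative chosen after seeing the data. The median difference from the parents was 0.24 to 0.39 under its 8 alternatives, of which the limit to parents with 1000 or more counts was also chosen after seeing the data. Upper-quartile factors moved the median of all genes from -0.02 to 0.0005. No paired analysis was possible because there was 1 library a group, and for the same reason no replicate could be left out. Low counts limit the members under 50, and near-identical sequence limits many, but not all, of those with more.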

Other observations

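Pseudogenes of RPSA and of the RPLP genes, which encode a laminin-binding small subunit protein and the acidic stalk proteins, have symbols of another form and are not among the members above. With 20 or more counts there were 15. RPSAP58 had 4207 counts in the control and 3319 in the knockdown, a log2 ratio of 0.12, and RPSAP15 had 2868 and 2851, a log2 ratio of 0.45. RPSAP47 stood higher, with 1093 counts and 1415, a log2 ratio of 0.82. RPLP0P6, with 2473 and 1689, was at -0.09, and RPLP1P4, with 955 and 847, at 0.28. These 5 were named after their values were seen.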
